A study of Homo sapiens with 27 samples.

Results

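The calcitonin receptor-like receptor CALCRL, its receptor activity-modifying proteins RAMP1, RAMP2 and RAMP3, and the peptide hormones adrenomedullin (ADM) and adrenomedullin 2 (ADM2) were followed by RNA sequencing after knockdown of the transcription factor GATA2. The members are 6 genes, chosen by symbol, of 23228 in the deposited table, and all 6 were in it. CALCRL was picked for its large rise in ARCaPM-DR, so its values in that line are given as a description. The 3 lines are docetaxel-resistant forms of established human prostate cancer lines, all given as Ch-CRPC in the labels: DU145-DR, 22Rv1-DR and ARCaPM-DR. They expressed the short hairpin RNA shGATA2a, the short hairpin RNA shGATA2b or a control hairpin. Each of these 9 groups had 3 libraries, 27 in all, and no group was without a hairpin. Knockdown below means the 6 libraries of both hairpins in a line. The sources used here do not say whether a line was a clone or a pool, or whether its replicates were separate cultures. The p-values therefore rest on a spread between libraries that may be technical.

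CALCRL is a G protein-coupled receptor that needs a RAMP partner to reach the cell surface and to choose its ligand. With RAMP1 it forms the receptor for calcitonin gene-related peptide, and with RAMP2 or RAMP3 the receptors for adrenomedullin. Binding couples through Gs to adenylyl cyclase, cyclic AMP and protein kinase A, and the pair of CALCRL with RAMP2 is best known in endothelium, where adrenomedullin governs vessel growth and barrier function. Adrenomedullin is also a secreted product of many carcinoma cells, prostate cancer cells among them, and is induced by low oxygen.

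Values are normalised read counts, the reads of a gene divided by 1 size factor per library. Libraries held 3.44 to 19.4 M reads, with a median of 12.87 M, and 1 read was worth 0.64 to 3.89 on this scale. A gene at 0 could hold up to 3 reads, which is 1.92 to 11.66 normalised reads depending on the library, and covers counting error only. Fold changes and tests are from limma on log2(value + 1), a scale that understates the change of genes with few reads. A gene was tested in a line if it reached 10 in at least 3 of the 9 libraries, and was called at a Benjamini-Hochberg adjusted p under 0.05. GATA2 averaged 307 ± 58.6 in knockdown and 1105 ± 167 in control libraries of DU145-DR, 1133 ± 356 and 3601 ± 642 in those of 22Rv1-DR, and 27.2 ± 10.7 and 157 ± 14.4 in those of ARCaPM-DR (SD, n = 6 knockdown and 3 control). It fell in each line by limma, with log2 fold changes of -1.85, -1.71 and -2.56 (adjusted p = 5.5e-05, 0.0256 and 8.8e-05), although 12 of its 27 values were not a whole number of reads. All 162 values of the members were whole. Over all genes, 16.7% of 13362 were called in DU145-DR (8.72% higher, 7.98% lower), 0.4% of 13757 in 22Rv1-DR (0.124% and 0.276%) and 18.5% of 13079 in ARCaPM-DR (9.86% and 8.62%). Knockdown libraries lay wholly above or wholly below the controls for 10% and 8.74% of genes tested in DU145-DR, 2.9% and 4.04% in 22Rv1-DR, and 11% and 10% in ARCaPM-DR. With the replicate number as a block, 5184 genes were called in DU145-DR in place of 2231, and 166 in 22Rv1-DR in place of 55.

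The receptor and the peptides differed in how much RNA each line held. CALCRL had reads in 25 of 27 libraries, 1140 reads in all, and RAMP1 in 17 libraries, nearly all of its 4749 reads being in 22Rv1-DR. RAMP2 had 33 reads, in the 9 libraries of 22Rv1-DR, and RAMP3 had 0 reads in 27 of 27 libraries. ADM and ADM2 had reads in every library, 25740 and 11998 in all. In DU145-DR 2 of 6 members passed the filter on low values, in 22Rv1-DR 3, and in ARCaPM-DR 3. The members below the filter are given with the reads behind them.

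The stretches of 250 bases before the starts of CALCRL and ADM are shown because these members had at least 1 line in which no knockdown library overlapped the controls, and the other members had none. They come from a set of RefSeq promoters on the GRCh38.p14 build, and not from the hg19 build of the deposited table. The set used here held 4 of 6 members, without RAMP1 and RAMP2. CALCRL lies on the minus strand and its stretch is chr2:187448253-187448502. ADM lies on the plus strand and its stretch is chr11:10304823-10305072. Both read 5′ to 3′ along the gene, with CG dinucleotides and a TATAAA in capitals.
CALCRL: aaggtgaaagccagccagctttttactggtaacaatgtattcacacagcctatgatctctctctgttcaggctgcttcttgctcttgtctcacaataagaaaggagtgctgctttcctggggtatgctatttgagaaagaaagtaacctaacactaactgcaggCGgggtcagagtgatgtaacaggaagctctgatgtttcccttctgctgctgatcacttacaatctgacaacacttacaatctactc
ADM: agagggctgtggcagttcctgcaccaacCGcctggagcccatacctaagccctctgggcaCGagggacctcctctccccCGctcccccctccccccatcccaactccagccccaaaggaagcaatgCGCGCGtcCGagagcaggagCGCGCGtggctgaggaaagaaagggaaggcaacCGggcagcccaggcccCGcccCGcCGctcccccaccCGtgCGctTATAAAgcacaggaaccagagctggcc
The CALCRL stretch was 44.0% G and C with 1 CG, and 6.06% of 35116 RefSeq promoters of this length had fewer. The ADM stretch was 68.0% G and C with 16 CG, against medians of 58.0% and 11 over all promoters. TATAAA occurred once in the ADM stretch, starting 27 bases before the start, and in 10.7% of all promoters on either strand. Hexamers that GATA factors are known to bind were looked for on both strands. Neither stretch held the hexamer AGATAA, the related hexamer AGATAG, the hexamer TGATAA or the hexamer TGATAG, while 22.3% of promoters held at least 1 of these. Neither held TGACG, the core of cyclic AMP response elements (21.2% of promoters), or ACGTG, 1 form of the core of hypoxia response elements (18.5%). The form GCGTG was not counted over all promoters, and the ADM stretch holds it. These counts describe letters in these windows only.

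CALCRL RNA was high in every ARCaPM-DR knockdown library and low in every other library of the series. In ARCaPM-DR the shGATA2a libraries held 306, 162 and 303 normalised reads, the shGATA2b libraries 204, 163 and 238, and the controls 9.25, 7.01 and 10.2. Every knockdown library lay above every control, as for 11% of genes tested in this line, and behind the values stood 1021 reads in knockdown and 31 in control libraries. The means were 229 ± 64.6 in knockdown and 8.83 ± 1.66 in control libraries (SD, n = 6 and 3), a ratio of 25.97 and a log2 fold change of 4.52 ± 0.25 (SE), given without a test because this rise chose the gene. The shallow shGATA2a replicate 3 held 78 of these reads, and leaving out any 1 library of the line kept the log2 fold change between 4.38 and 4.67. The log2 difference of shGATA2b against shGATA2a was -0.31 ± 0.28 (SE), also given without a test.

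In 22Rv1-DR CALCRL lay at a few reads per library and was higher in all knockdown libraries. The shGATA2a libraries held 12.4, 6.95 and 5.65 normalised reads, the shGATA2b libraries 10.01, 8.12 and 3.86, and the controls 0.86, 1.98 and 2.45. No knockdown library overlapped the controls, over 52 reads in knockdown and 6 in control libraries, a ratio of means of 4.446. Among 22Rv1-DR genes below the filter, 0.618% showed such a separation upward and 0.908% downward. With no filter the log2 fold change was 1.65 ± 0.38 (SE), which was not called by limma within the line (adjusted p = 0.185, and 0.108 with the replicate block), where 0.248% of genes were called.

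In DU145-DR CALCRL was lower in all knockdown libraries, again over few reads. The shGATA2a libraries held 2.78, 0 and 1.54 normalised reads, the shGATA2b libraries 0, 2.41 and 1.73, and the controls 5.22, 4.28 and 5.19. The groups did not overlap, with 10 reads in knockdown and 20 in control libraries and a ratio of means of 0.288, and 1.5% of DU145-DR genes below the filter were separated downward in this way and 0.906% upward. With no filter the log2 fold change was -1.48 ± 0.46 (SE). The limma adjusted p was 0.0593 without the replicate block, where 10.4% of genes were called. With the block it was 0.0198, where 38.8% of the genes passing the filter were called. Leaving out shGATA2a replicate 1 or shGATA2b replicate 2 gave adjusted p = 0.0405 and 0.0429 without the block.

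The effects on CALCRL in 22Rv1-DR and DU145-DR were compared in a fit of their 18 libraries alone, with no filter, so that the ARCaPM-DR values entered neither the means nor the spread. The knockdown effect in 22Rv1-DR minus that in DU145-DR was 3.12 ± 0.62 on the log2 scale (SE; limma adjusted p = 0.0257, and 0.0169 with the replicate block). Of 19641 genes, 0.642% were called without the block and 6.16% with it. The call was lost with a pseudocount of 0.1 (4.79, adjusted p = 0.145), without DU145-DR Control replicate 1 (0.103), 2 (0.0758) or 3 (0.0684), and without 22Rv1-DR Control replicate 1 (0.0633). In control libraries the log2 difference of CALCRL in 22Rv1-DR against DU145-DR was -1.14 ± 0.51 (SE), which was not called (limma adjusted p = 0.0613), where 60.2% of genes differed. It was called without DU145-DR shGATA2a replicate 2 (0.038) or shGATA2b replicate 1 (0.0387).

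**Figure D1:**
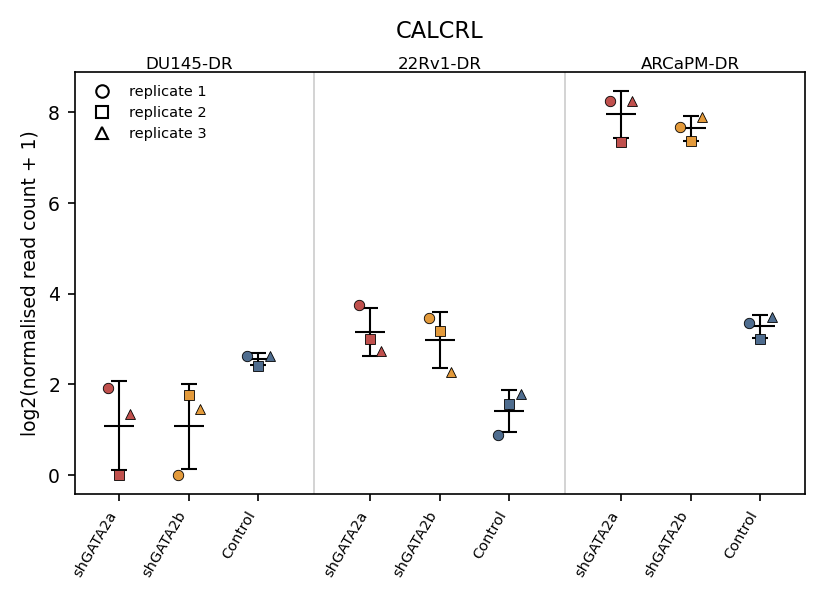
CALCRL as log2(normalised read count + 1) in each library of the 3 lines, by hairpin, with the mean and SD of 3 libraries as bars and the marker shape giving the replicate number. The 6 ARCaPM-DR knockdown libraries stand far above all others, and the 22Rv1-DR and DU145-DR knockdown libraries lie above and below their own controls.

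RAMP1, the partner that makes CALCRL a receptor for calcitonin gene-related peptide, was a 22Rv1-DR transcript. There the shGATA2a libraries held 651, 602 and 320 normalised reads, the shGATA2b libraries 540, 506 and 260, and the controls 476, 509 and 441. The groups overlapped, and replicate 3 was the lowest in each of the 3 arms. The log2 fold change was -0.06 ± 0.27 (SE; limma adjusted p = 0.95), so a change was not detectable. In ARCaPM-DR, where CALCRL was high, RAMP1 lay between 0 and 2.99 normalised reads in knockdown libraries and between 1.28 and 2.64 in controls, from 7 and 6 reads. With no filter its log2 fold change was -0.50 ± 0.50 (SE; limma adjusted p = 0.586), where 12.5% of genes were called with no filter. In DU145-DR 1 read was found, in shGATA2b replicate 1. Between controls, RAMP1 was lower in ARCaPM-DR than in 22Rv1-DR by a log2 difference of -7.39 ± 0.45 (SE; limma adjusted p = 1.6e-13), where 70.3% of genes differed. With no filter the value was the same (limma adjusted p = 6.3e-13). Against DU145-DR controls, all at 0, the 22Rv1-DR controls were at least 213-fold higher, with a floor of 3 reads per library.

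The adrenomedullin partners were near or at 0. RAMP2, needed for the classical adrenomedullin receptor, held 0 reads in all 18 libraries of DU145-DR and ARCaPM-DR. In 22Rv1-DR it held 2.67, 3.47 and 0.81 normalised reads with shGATA2a, 5.0, 0.90 and 1.93 with shGATA2b, and 5.16, 8.93 and 1.63 in controls. Those groups overlapped, over 16 reads in knockdown and 17 in control libraries, and the log2 fold change with no filter was -0.78 ± 0.50 (SE; limma adjusted p = 0.651). RAMP3, the alternative adrenomedullin partner, was at 0 throughout, so no level above the 3-read floor was seen in any line.

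Levels between genes were set side by side per kilobase of GENCODE v29 exons. In ARCaPM-DR CALCRL reached 43.9 ± 12.4 normalised reads per kilobase in knockdown and 1.69 ± 0.32 in control libraries (SD, n = 6 and 3), and RAMP1 1.05 ± 1.01 in knockdown and 1.53 ± 0.56 in control libraries. In 22Rv1-DR the order was the other way, with RAMP1 at 389 ± 127 and 385 ± 27.5 normalised reads per kilobase and CALCRL at 1.5 ± 0.59 and 0.34 ± 0.16, in knockdown and control libraries. The receptor was therefore the more abundant of the pair in ARCaPM-DR knockdown libraries, and RAMP1 the more abundant in all groups of 22Rv1-DR. In ARCaPM-DR controls the pair stood within an SD of each other per kilobase.

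CALCR, the calcitonin receptor and the other receptor that pairs with RAMPs, was also higher in ARCaPM-DR knockdown. The shGATA2a libraries held 31.4, 19.9 and 11.7 normalised reads, the shGATA2b libraries 39.3, 32.6 and 30.0, and the controls 9.25, 8.76 and 7.04. All knockdown libraries lay above all controls, as for 11% of genes tested in this line. The gene passed the filter only through the knockdown libraries, since no control reached 10. The test is therefore given with no filter, where 12.5% of genes were called. The log2 fold change was 1.52 and the limma adjusted p was 0.0143. In 22Rv1-DR, where CALCR averaged 57.5 ± 17.9 in knockdown and 55.1 ± 30.9 in control libraries, it was 0.20 ± 0.40 (SE; limma adjusted p = 0.867). CALCA and CALCB, which encode the calcitonin gene-related peptides, lay at 12.04 to 53.8 and 30.2 to 102 normalised reads in 22Rv1-DR and at no more than 3 reads in any other library. CRCP, a component of the receptor complex for calcitonin gene-related peptide, was between 420 and 1022 normalised reads in every library and was called in no line. Of the 6 other calcitonin family genes in the table, 2 passed the filter in ARCaPM-DR, 5 in 22Rv1-DR and 1 in DU145-DR, and apart from CALCR none was called by limma.

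**Figure D2:**
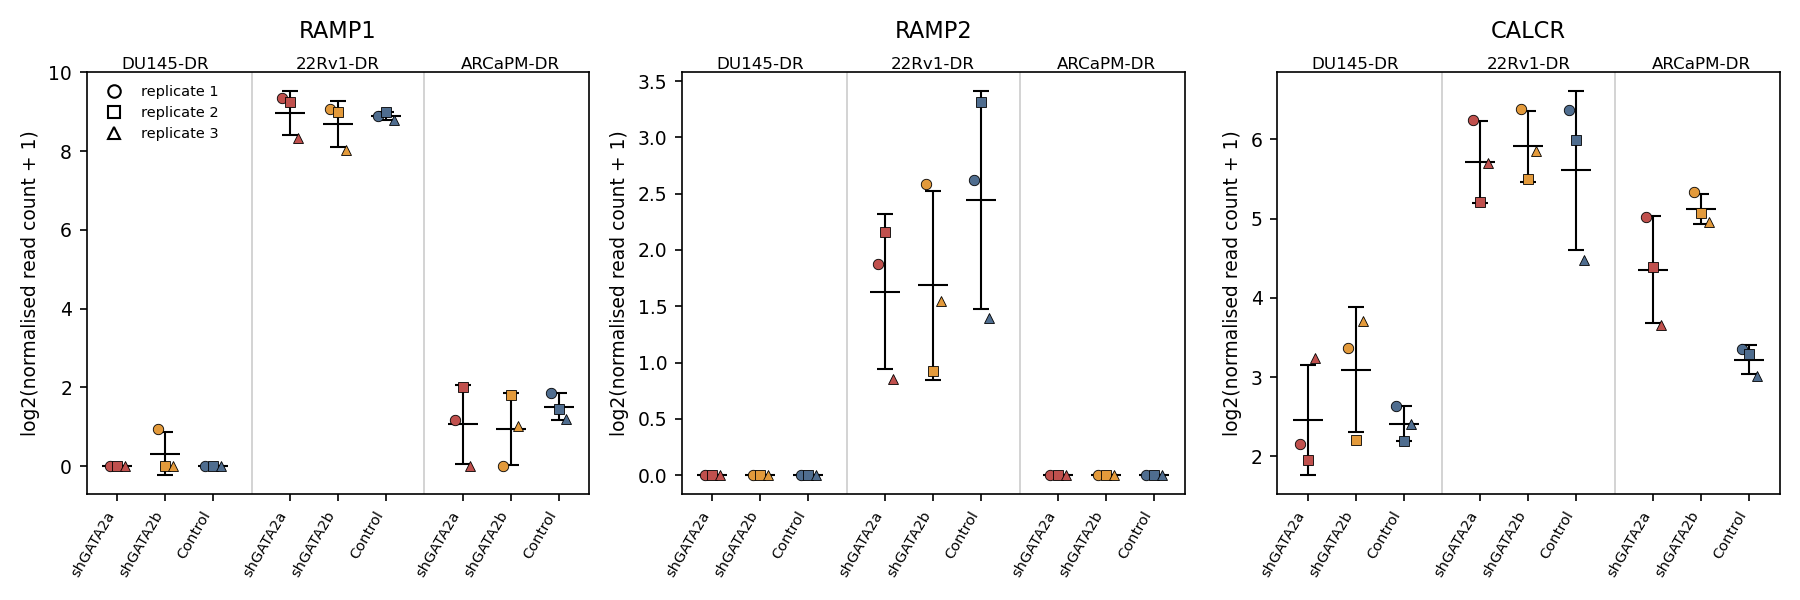
RAMP1, RAMP2 and CALCR as log2(normalised read count + 1) in each library, by line and hairpin, with means and SD of 3 libraries as bars and the marker shape giving the replicate number. RAMP1 is high in 22Rv1-DR alone, RAMP2 is at 0 outside 22Rv1-DR, and CALCR in ARCaPM-DR is above its controls in all 6 knockdown libraries.

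ADM, the ligand, moved in opposite directions in DU145-DR and ARCaPM-DR. In DU145-DR the shGATA2a libraries held 293, 393 and 343 normalised reads, the shGATA2b libraries 312, 408 and 373, and the controls 511, 628 and 470. Every knockdown library lay below every control, as for 8.74% of DU145-DR genes tested. ADM fell by 0.60 ± 0.13 on the log2 scale (SE; limma adjusted p = 0.0088), and was the 1 member called of the 2 tested, where 16.7% of all genes were called. The call was lost without Control replicate 2 (-0.48, adjusted p = 0.064) and with the spread taken from all 27 libraries (0.338). With the replicate block the limma adjusted p was 4.1e-06, where 38.8% of genes were called.

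In ARCaPM-DR ADM held 1353, 2032 and 1007 normalised reads with shGATA2a, 2760, 3612 and 2230 with shGATA2b, and 797, 1573 and 877 in controls. The 3 shGATA2b libraries and shGATA2a replicate 2 lay above all controls, while the other shGATA2a libraries overlapped them. ADM rose by 0.94 ± 0.27 on the log2 scale (SE; limma adjusted p = 0.0367), where 9.86% of genes tested were called higher. The call was lost without Control replicate 1 (0.76, adjusted p = 0.167), Control replicate 3 (0.83, 0.136), shGATA2a replicate 1 (0.96, 0.0729), shGATA2b replicate 1 (0.95, 0.0727) or shGATA2b replicate 2 (0.85, 0.0594). With the replicate block the limma adjusted p was 5.1e-07, where 22.4% of genes were called higher. By hairpin, ADM averaged 2867 ± 698 with shGATA2b and 1464 ± 522 with shGATA2a (SD, n = 3 each), a log2 difference of 1.0 ± 0.31 (SE) that limma did not call (adjusted p = 0.22), where 0.803% of genes were called. GATA2 itself averaged 19.7 ± 2.23 with shGATA2b and 34.6 ± 10.6 with shGATA2a, a log2 difference of -0.75 ± 0.25 (SE; limma adjusted p = 0.257).

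In 22Rv1-DR ADM held 575, 361 and 780 normalised reads with shGATA2a, 659, 376 and 738 with shGATA2b, and 427, 552 and 1441 in controls. Control replicate 3 alone was above all knockdown libraries, and the groups overlapped. The log2 fold change was -0.33 ± 0.37 (SE; limma adjusted p = 0.749) and turned to 0.20 without that control. None (0) of the 3 members tested in 22Rv1-DR was called by limma, edgeR or DESeq2, and 0 had an unadjusted p under 0.05. Over all genes there, 0.4% were called by limma and 10% had an unadjusted limma p under 0.05.

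Between lines, the knockdown effect on ADM in ARCaPM-DR minus that in DU145-DR was 1.54 ± 0.44 on the log2 scale (SE; limma adjusted p = 0.0334), where 7.13% of genes were called. The test over all 3 lines together gave an adjusted p of 0.0538, where 7% of genes were called, and it was called without any 1 of 6 libraries (0.0219 to 0.0431), namely each 22Rv1-DR control, 22Rv1-DR shGATA2a replicate 3, ARCaPM-DR Control replicate 2 and ARCaPM-DR shGATA2a replicate 3. The pairwise call was lost without any 1 of 7 libraries, namely each DU145-DR control, DU145-DR shGATA2a replicate 1 and shGATA2b replicate 1, and ARCaPM-DR Control replicates 1 and 3, with adjusted p up to 0.111. ARCaPM-DR minus 22Rv1-DR was 1.27 ± 0.44 (SE; limma adjusted p = 0.122, and 0.0466 without 22Rv1-DR Control replicate 1), where 3.39% of genes were called, and 22Rv1-DR minus DU145-DR 0.27 ± 0.44 (SE; limma adjusted p = 0.848), where 1.09% were called. In control libraries ADM was highest in ARCaPM-DR at 1082 ± 427, then 807 ± 553 in 22Rv1-DR and 536 ± 82.1 in DU145-DR (SD, n = 3 each). Of these, ARCaPM-DR against DU145-DR differed, by a log2 value of 0.95 ± 0.36 (SE; limma adjusted p = 0.0253), where 59.9% of genes differed, and neighbours in that order were not called different (adjusted p = 0.165 and 0.341). Without 22Rv1-DR Control replicate 3, ARCaPM-DR was above 22Rv1-DR by 1.09 (adjusted p = 0.00581) and 22Rv1-DR was at -0.13 against DU145-DR (0.737). The call for ARCaPM-DR against DU145-DR was lost without DU145-DR Control replicate 1 (0.061) or 3 (0.0773) and without ARCaPM-DR Control replicate 2 (0.159).

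ADM2, a second ligand of the same receptors, separated the lines but was not called for knockdown in any. In DU145-DR it held 142, 147 and 131 normalised reads with shGATA2a, 139, 136 and 142 with shGATA2b, and 175, 162 and 128 in controls. In 22Rv1-DR it averaged 1072 ± 184 in knockdown and 986 ± 144 in control libraries, and in ARCaPM-DR 20.6 ± 6.46 in knockdown and 13.5 ± 4.90 in control libraries (SD, n = 6 and 3). The groups overlapped in all 3 lines, with log2 fold changes of -0.14 ± 0.12, 0.11 ± 0.18 and 0.57 ± 0.32 for DU145-DR, 22Rv1-DR and ARCaPM-DR (SE; limma adjusted p = 0.47, 0.824 and 0.246). Among controls 22Rv1-DR was above DU145-DR by a log2 difference of 2.66 ± 0.24 and ARCaPM-DR below DU145-DR by -3.47 ± 0.24 (SE; limma adjusted p = 6.0e-10 and 6.0e-12), where 70.5% and 59.9% of genes differed. The order of the lines for ADM2, 22Rv1-DR above DU145-DR above ARCaPM-DR, was not that of ADM.

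**Figure D3:**
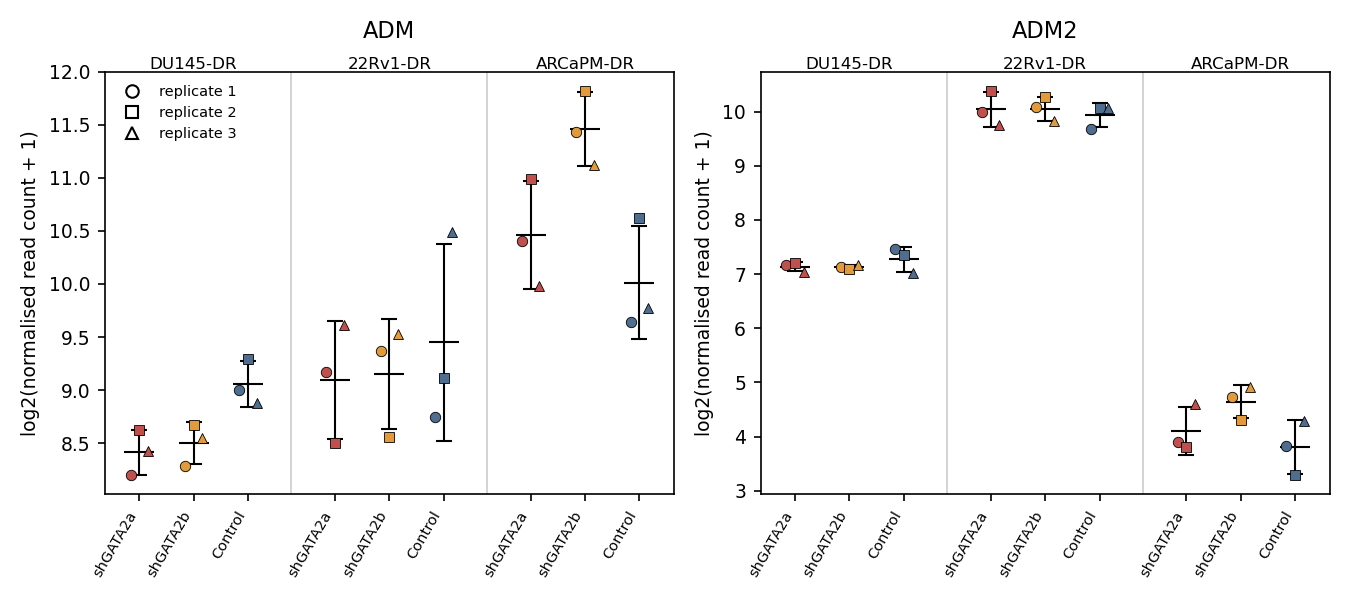
ADM and ADM2 as log2(normalised read count + 1) in each library, by line and hairpin, with means and SD of 3 libraries as bars and the marker shape giving the replicate number. ADM lies below its controls in all 6 DU145-DR knockdown libraries and above them with shGATA2b in ARCaPM-DR, while ADM2 differs by line.

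No member was called different between the hairpins without the replicate block. Of the members tested in a line, 0 were called for shGATA2b against shGATA2a, and 1 (ADM in ARCaPM-DR) had an unadjusted p under 0.05 (limma, 0.00924), with 0 called by edgeR and 0 by DESeq2. Over all genes 0% were called by limma in DU145-DR, with 787 at an unadjusted p under 0.05, 0 called by edgeR and 12 by DESeq2. In 22Rv1-DR 0% were called by limma, with 13 at an unadjusted p under 0.05 and 0 called by edgeR and by DESeq2. In ARCaPM-DR, the line of the ADM value, 1486 genes (11.4%) had an unadjusted limma p under 0.05. There 105 genes (0.803%) were called by limma, 102 by edgeR and 399 by DESeq2.

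The effector arm of the pathway, G protein, adenylyl cyclases and protein kinase A, moved both ways. Of 18 such genes tested in ARCaPM-DR 2 rose and 3 fell (11.1% and 16.7%, with 9.86% and 8.62% over all genes). PRKACB, a catalytic subunit of protein kinase A, held 775, 390 and 812 normalised reads with shGATA2a, 467, 445 and 458 with shGATA2b, and 136, 113 and 123 in controls. All knockdown libraries lay above all controls, as for 11% of genes tested in this line, and PRKACB rose by 2.10 ± 0.22 on the log2 scale (SE; limma adjusted p = 2.5e-04). PRKAR1B, a regulatory subunit, and the adenylyl cyclase ADCY9 fell, with log2 fold changes of -1.5 ± 0.22 and -1.87 ± 0.18 (SE; limma adjusted p = 0.00159 and 1.8e-04), though 3 values of ADCY9 in the table were not whole reads. In DU145-DR 1 rose and 3 fell of 20 (5% and 15%, with 8.72% and 7.98% over all genes). Among them were the CREB coactivators CRTC1 and CRTC3, which fell by 0.71 and 0.57 (limma adjusted p = 0.00349 and 0.017). With the replicate block 5 rose and 7 fell there (25% and 35%, with 19.6% and 19.2%, or 38.8% both ways, over all genes). In 22Rv1-DR 0 of 19 were called.

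Of genes known to respond to cyclic AMP, some fell in DU145-DR. There 0 rose and 4 fell of 12 tested (33.3% down, with 7.98% over all genes), with a list median of -0.41 on the log2 scale and 0 over all genes. With the replicate block 8 fell (66.7%, with 19.2% over all genes), adding PER1, FOS, SIK1 and CITED2. Those called without the block were the nuclear receptors NR4A1, NR4A2 and NR4A3, which fell by 0.91 ± 0.18, 0.87 ± 0.20 and 0.68 ± 0.20, and the phosphatase DUSP1, which fell by 0.54 ± 0.09 (SE; limma adjusted p = 0.00511, 0.0104, 0.0361 and 0.00295), NR4A3 not being called with no filter (0.0524). In ARCaPM-DR 1 rose and 0 fell of 13, the G protein regulator RGS2 at 0.44 ± 0.13 (SE; limma adjusted p = 0.0455, and 0.0536 with no filter), where 9.86% and 8.62% of genes were called higher and lower, and the list median was -0.19. In 22Rv1-DR 0 of 15 were called, and with the replicate block 1 (FOS, -0.62, adjusted p = 0.0207), where 1.21% of genes were called and 0.741% were called lower. Of 8 phosphodiesterases that break down cyclic AMP, 1 rose and 1 fell in ARCaPM-DR (PDE3B by 0.49, PDE4A by -0.64), 12.5% each way. Of 9 in DU145-DR 1 rose and 1 fell (PDE4D by 0.47, PDE4A by -0.41), 11.1% each way, with 8.72% and 7.98% over all genes. In 22Rv1-DR 0 of 10 were called. With the replicate block 2 and 3 of the 9 were called up and down in DU145-DR (22.2% and 33.3%, with 19.6% and 19.2% over all genes).

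Among genes that mature or clear these peptides, 2 rose and 2 fell of 8 tested in DU145-DR (25% each way, with 8.72% and 7.98% over all genes). FURIN, a protease that cuts peptide precursors, fell to 699 ± 45.5 in knockdown libraries, against 1487 ± 260 in controls (SD, n = 6 and 3; log2 -1.07 ± 0.11 SE, limma adjusted p = 1.7e-04). PCSK7, another proprotein convertase, rose by 0.70, MME (neprilysin, which degrades adrenomedullin) rose by 0.55, and ECE1 fell by 0.52 (limma adjusted p = 7.8e-04, 0.00938 and 0.00351). PAM, which amidates adrenomedullin, was not called without the replicate block in DU145-DR (-0.11), 22Rv1-DR (-0.01) or ARCaPM-DR (0.48). None (0) of 7 was called in ARCaPM-DR, where 9.86% and 8.62% of genes were called higher and lower. With the replicate block 2 rose there (PCSK7 and PAM) and 1 fell (FURIN). These were 28.6% and 14.3%, with 22.4% and 22.6% over all genes. In 22Rv1-DR 1 of 8 fell (12.5%, with 0.276% over all genes), DPP4 by 0.90, with 3 of its values not whole reads. Receptor kinases, arrestins and sorting genes were called in 7 of 13 cases in DU145-DR (3 up, 4 down, 23.1% and 30.8%, with 8.72% and 7.98% over all genes). With the replicate block 4 rose and 6 fell there (30.8% and 46.2%, with 19.6% and 19.2% over all genes). Without the block, genes of this list were called in 3 of 13 cases in ARCaPM-DR (1 up, 2 down, 7.69% and 15.4%, with 9.86% and 8.62% over all genes). In 22Rv1-DR 0 of 12 were called, with 0.4% over all genes. ADRBK2, a receptor kinase, was at 0.44 in DU145-DR and -0.65 in ARCaPM-DR.

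Hypoxia targets that are induced with adrenomedullin moved both ways. In ARCaPM-DR 4 rose and 7 fell of 26 tested (15.4% and 26.9%, with 9.86% and 8.62% over all genes), ADM being 1 of the 4. NDRG1 fell by 1.43 ± 0.13 and the pyruvate dehydrogenase kinase PDK1 fell by 1.37 ± 0.25, while the glucose transporter SLC2A3 rose by 2.37 ± 0.33 (SE; limma adjusted p = 1.5e-04, 0.00455 and 0.00126). In DU145-DR 5 rose and 3 fell of 26 (19.2% and 11.5%, with 8.72% and 7.98% over all genes), ADM being 1 of the 3, and with the replicate block 10 rose and 5 fell (38.5% and 19.2%, with 19.6% and 19.2%). There SLC2A3 rose by 1.37 ± 0.18 and the demethylase KDM3A by 0.73 ± 0.08, and EPAS1, a hypoxia-inducible factor, fell by 0.97 ± 0.14 (SE; limma adjusted p = 6.7e-04, 2.4e-04 and 0.00105). In 22Rv1-DR 0 of 26 were called. List medians were -0.13, 0.13 and -0.01 on the log2 scale in ARCaPM-DR, DU145-DR and 22Rv1-DR, with -0.02 to 0 over all genes.

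**Figure D4:**
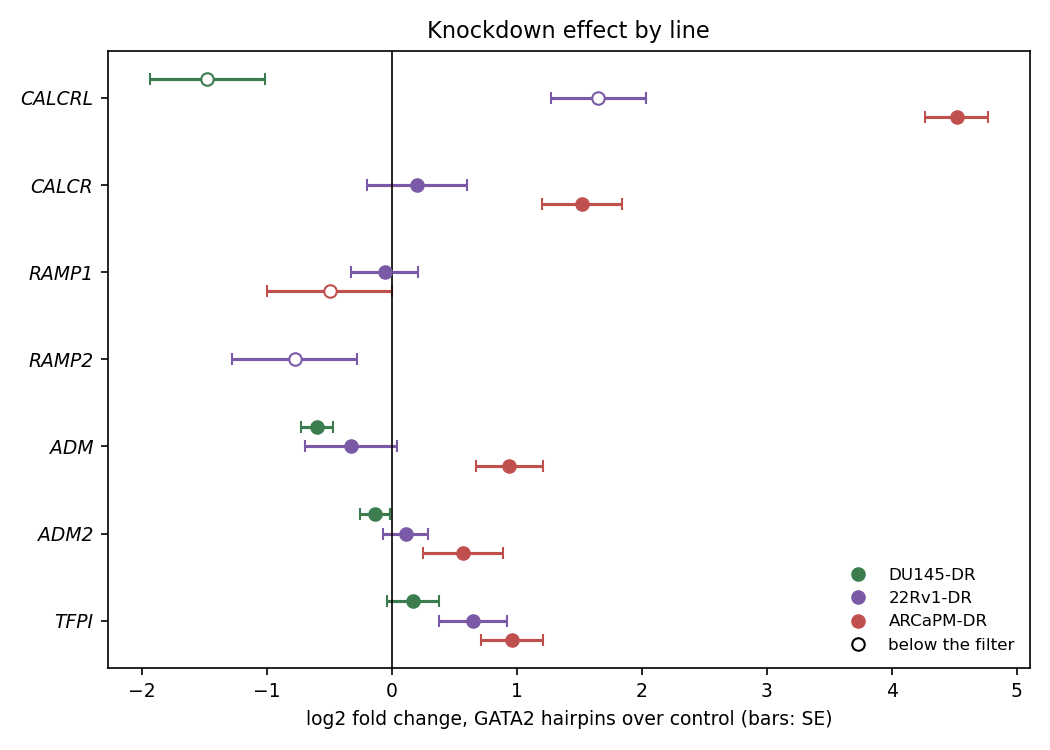
Log2 fold change of both GATA2 hairpins over control, with SE, for the members, CALCR and TFPI by line, open symbols being members below the filter on low values. RAMP3, RAMP1 in DU145-DR, RAMP2 outside 22Rv1-DR and CALCR in DU145-DR are not drawn. CALCRL is at 4.52, 1.65 and -1.48 in ARCaPM-DR, 22Rv1-DR and DU145-DR, and ADM at 0.94, -0.33 and -0.60.

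CALCRL is known as an endothelial gene, so endothelial markers were measured beside it. In ARCaPM-DR PECAM1, KDR, SOX17, TAL1 and PDPN, 5 of 22 markers, were at 0 in all 9 libraries, and 14 stayed below 10. The summed marker level was 634 to 1724 in knockdown and 1033 to 1693 in control libraries. One (1) of the 7 tested rose, EMCN at 275 ± 72.4 in knockdown and 132 ± 60.3 in control libraries (limma adjusted p = 0.0231), and 0 were called lower. The others lay below 0, uncalled: ROBO4 at -1.78, SOX18 -0.94, ESAM -0.75, ERG -0.41, EGFL7 -0.34 and ENG -0.18, with a list median of -0.41. With the replicate block 1 rose and 4 fell (14.3% and 57.1%, with 22.4% and 22.6% over all genes). In DU145-DR KDR and ROBO4 were at 18.1 ± 9.28 and 14.2 ± 3.34 in knockdown libraries, against 5.99 ± 1.48 and 4.48 ± 1.06 in controls. Both reached the filter in knockdown libraries only, and with no filter their limma adjusted p was 0.0191 and 0.0067. The list median in DU145-DR was -0.14 over the 9 tested. The summed level there was 572 to 840 in knockdown and 703 to 975 in control libraries, and in 22Rv1-DR it was 229 to 368 in knockdown and 263 to 500 in control libraries, with 0 of 4 called. Fibroblast and smooth muscle markers in ARCaPM-DR had summed levels of 5845 to 15054 in knockdown and 2454 to 4855 in control libraries. Of 5 tested 2 rose, COL3A1 by 2.01 and ACTA2 by 0.89 (limma adjusted p = 0.00878 and 0.0259), where 9.86% of genes were called higher. MYH11, COL1A1 and RGS5 were not called, at 0.85, 0.42 and -0.72, PDGFRB and DES were at 0, and the part of these markers in the CALCRL values was not tested. Of the blood cell markers 1 was tested in ARCaPM-DR, CD68, which fell by 1.75 (limma adjusted p = 0.0038), with CD3E at 0. The libraries are bulk RNA of cultured cancer lines, so these markers are read as transcripts of the lines and not as counts of other cell types. Of 12 epithelial and prostate markers all were tested in 22Rv1-DR, 7 in ARCaPM-DR and 5 in DU145-DR, KLK3 being at 0 in ARCaPM-DR and DU145-DR, and EPCAM alone was called, up by 0.99 in ARCaPM-DR (limma adjusted p = 0.0204). With the replicate block KLK3 was called lower (-1.37) and FOLH1 higher (0.67) in 22Rv1-DR (limma adjusted p = 0.0231 and 0.0494). VIM, a mesenchymal gene on this list, was called higher in DU145-DR (0.18, adjusted p = 0.0388). In ARCaPM-DR 1 rose and 4 fell of 7 with the block (14.3% and 57.1%, with 22.4% and 22.6% over all genes), VIM being among those that fell.

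The genes beside CALCRL and ADM on the chromosome were read in the same way, their order taken from GENCODE v29. TFPI, an inhibitor of tissue factor and the neighbour on one side of CALCRL, held 6718, 4428 and 9716 normalised reads with shGATA2a, 5229, 3857 and 7143 with shGATA2b, and 2963, 2725 and 3446 in controls of ARCaPM-DR. All knockdown libraries lay above all controls, as for 11% of genes tested in this line. TFPI rose by 0.96 ± 0.25 on the log2 scale (SE; limma adjusted p = 0.0247), where 9.86% of genes were called higher. Its log2 fold change was 0.65 ± 0.27 in 22Rv1-DR and 0.17 ± 0.21 in DU145-DR, neither called (SE; limma adjusted p = 0.445 and 0.61). ZSWIM2, on the other side of CALCRL, averaged under 1 normalised read in all groups. Around ADM, SBF2 was called in no line, and AMPD3 rose in DU145-DR by 0.54 ± 0.16, where ADM fell, and was at -0.53 ± 0.19 in ARCaPM-DR, where ADM rose (SE; limma adjusted p = 0.0325 and 0.0756).

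**Figure D5:**
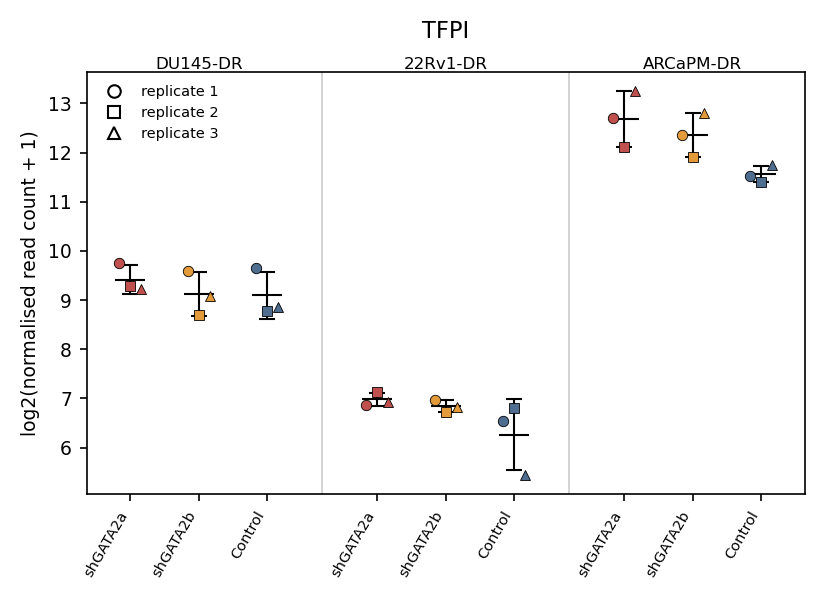
TFPI, the neighbour of CALCRL, as log2(normalised read count + 1) in each library, by line and hairpin, with means and SD of 3 libraries as bars and the marker shape giving the replicate number. In ARCaPM-DR the 6 knockdown libraries lie above the 3 controls, while in DU145-DR the groups overlap.

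Of 15295 genes, those whose profile over the 27 libraries was most like CALCRL by Pearson correlation of log2(value + 1) were PON2 (0.925), TRANK1 (0.924), RASSF8 (0.923), DCX (0.923) and CARD16 (0.922). RASSF8 averaged 2508 normalised reads in ARCaPM-DR knockdown and 691 in ARCaPM-DR control libraries, with 199 to 286 in the groups of the other lines. The genes most like ADM were B4GALT4 (0.927), ERC1 (0.910), STARD4 (0.906), C6orf192 (0.903) and RAPGEF3 (0.898), the last of these encoding a guanine nucleotide exchange factor that cyclic AMP activates. RAPGEF3 averaged 275 in ARCaPM-DR knockdown and 139 in ARCaPM-DR control libraries, with 25.2 to 57.2 in the other groups. These correlations are descriptions over libraries that share their lines.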

How the data were processed

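RNA of 3 prostate cancer lines was sequenced with 3 libraries in each of 9 groups. The RNeasy Mini kit was used for isolation, per the labels' protocols, and TopHat2 2.0.9 and Cufflinks 1.3.0 were used with hg19, per the submitters' processing notes. The sources used here do not name the program that counted reads or say whether it used strand. The authors deposited 1 table of normalised signal, 23228 genes by 27 libraries (0 columns were not used). The values gave the unit: those of a library were multiples of 1 step, as gene read counts divided by a size factor are. Of 433407 values above 0, 99.954% were whole reads to within 0.005, and 199 values in 58 genes were not.

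limma 3.58.1 (R 4.3.3) was run with a mean-variance trend on log2(value + 1), per line for knockdown (mean of both hairpins minus control) and for shGATA2b against shGATA2a, and on all 27 libraries for differences between lines and for control levels. The design had set these fits, and they were kept for scaled counts. The F test over lines and the pairwise differences use that second fit, where a gene had to reach 10 in at least 3 of 27 libraries. The pairwise differences, the fits with no filter for members below it, the fit of the 18 DU145-DR and 22Rv1-DR libraries for CALCRL, and the block counts of lists were added after seeing the data. CALCRL comparisons whose values or spread use ARCaPM-DR libraries are given without a test. edgeR 4.0.16 (quasi-likelihood) and DESeq2 1.42.0 ran on recovered reads as alternatives, with another pseudocount, no filter, TMM scaling, the replicate block, a joint fit of the 27 libraries, and each library left out in turn. The methods were tested on simulated data.

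The members and the gene lists were chosen with earlier results of these data known. Genes named outside the members are, by a rule set with the design, GATA2, up to 3 called genes of smallest adjusted p per list and line, the neighbours of CALCRL and ADM, and the 5 genes most like each of these. CALCA, CALCB, CRCP, PAM, MME, NR4A3, genes added by the block and uncalled markers fall outside that rule and were named after their values were seen.

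Same-numbered libraries were compared by correlating their deviations from group means. The lowest of 9 correlations was 0.28 for DU145-DR, 0.21 for 22Rv1-DR and 0.06 for ARCaPM-DR. The medians were 0.39, 0.41 and 0.58, with -0.21, -0.21 and -0.26 for other numbers. The most alike library of another arm had the same number for 9, 9 and 7 of 9 libraries. By the lowest value, the numbers were taken to pair libraries in DU145-DR and 22Rv1-DR, and pairing in ARCaPM-DR was left undecided. This pairing comes from the data alone. Replicates of a group all differed beyond counting noise (chi-square per gene 6.4 to 103.7). Promoter stretches are from RefSeq on GRCh38.p14, and exon lengths and gene order from GENCODE v29. Python 3.11.15 and pandas 2.3.3 were used.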

Additional observations from a re-analysis of the deposited data

Results flagged for a closer look

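The knockdown effect on CALCRL in 22Rv1-DR minus that in DU145-DR was 3.12 on the log2 scale in the 18 libraries of these lines (limma adjusted p = 0.0257), every knockdown library lying above its controls in 22Rv1-DR and below them in DU145-DR. It rests on 52 reads in knockdown and 6 in control libraries of 22Rv1-DR, and on 10 and 20 in DU145-DR. It was not called with a pseudocount of 0.1 (adjusted p = 0.145) or without any 1 of 4 controls, those of DU145-DR and 22Rv1-DR Control replicate 1 (0.0633 to 0.103).

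The effect on CALCRL in ARCaPM-DR minus that in DU145-DR was 5.99, all 6 knockdown libraries being above their controls in ARCaPM-DR and below them in DU145-DR. The difference was not tested, because the ARCaPM-DR values chose the gene.

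The effect on ADM in ARCaPM-DR minus that in DU145-DR was 1.54 on the log2 scale (limma adjusted p = 0.0334). All 6 knockdown libraries were below all controls in DU145-DR, and 4 of 6 were above all controls in ARCaPM-DR.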

How the results depend on the processing

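Alternatives changed counts over all genes more than member values. With the replicate block, 5184 genes were called for knockdown in DU145-DR, 166 in 22Rv1-DR, 5885 in ARCaPM-DR, calls for shGATA2b against shGATA2a were 290 in DU145-DR and 1629 in ARCaPM-DR, calls over all 3 lines 4003, and pairwise calls 3138 (ARCaPM-DR minus DU145-DR), 1571 (22Rv1-DR minus DU145-DR) and 2280 (ARCaPM-DR minus 22Rv1-DR). In 1 fit of all 27 libraries, knockdown calls were 650 in DU145-DR and 224 in 22Rv1-DR, and hairpin calls 252 in ARCaPM-DR. DESeq2 gave 191 knockdown calls in 22Rv1-DR, 12 hairpin calls in DU145-DR and 399 in ARCaPM-DR, 1825 over all lines, 537 for 22Rv1-DR minus DU145-DR and 790 for ARCaPM-DR minus 22Rv1-DR. The cause of these shifts was not tested.

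With each library left out in turn, knockdown calls ran from 857 to 2440 in DU145-DR (939 without Control replicate 1, 857 without Control replicate 2), from 0 to 37 in 22Rv1-DR (0 to 2 without any library but Control replicate 3) and from 1179 to 3545 in ARCaPM-DR (1179, 1351, 1522 and 1588 without Control replicate 1, Control replicate 3, shGATA2a replicate 1 and shGATA2b replicate 1). Hairpin calls ran from 0 to 7 in DU145-DR and from 10 to 281 in ARCaPM-DR. Calls over all lines ran from 721 to 1509, and pairwise from 664 to 1496 (ARCaPM-DR minus DU145-DR), 50 to 294 (22Rv1-DR minus DU145-DR) and 312 to 843 (ARCaPM-DR minus 22Rv1-DR).

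Of 1133 member values under 46 member results, 1076 kept direction and side of the threshold. Values that changed sign were all uncalled. Under another setting these were the ADM2 hairpin difference in DU145-DR (0 with TMM scaling, 0 with edgeR, 0.01 with DESeq2) and RAMP1 knockdown in 22Rv1-DR (0.04 with edgeR, 0.03 with DESeq2). With libraries left out, sign changes lay in the following ranges. For ADM, the hairpin difference ran from -0.02 to 0.19 in DU145-DR and from -0.24 to 0.35 in 22Rv1-DR, knockdown in 22Rv1-DR from -0.68 to 0.20, the effect in 22Rv1-DR minus DU145-DR from -0.08 to 0.80, and the control level in 22Rv1-DR against DU145-DR from -0.13 to 0.74. For ADM2, the hairpin difference ran from -0.06 to 0.03 in DU145-DR and from -0.13 to 0.18 in 22Rv1-DR, and knockdown in 22Rv1-DR from -0.01 to 0.19. For RAMP1 in 22Rv1-DR, knockdown ran from -0.16 to 0.11 and the hairpin difference from -0.60 to 0.06.

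With the replicate block ADM was called for hairpins in ARCaPM-DR (adjusted p = 1.5e-05), over all lines (3.5e-04) and for ARCaPM-DR minus 22Rv1-DR (0.00192), and ADM2 over all lines (0.0261) and for ARCaPM-DR minus DU145-DR (0.0126). The same-number correlations in ARCaPM-DR had a median of 0.58 but reached down to 0.06, so these block values are given for completeness. In ARCaPM-DR the block called 6 higher and 4 lower of 18 G protein, cyclase and kinase genes (33.3% and 22.2%). It called 3 and 3 of 13 cyclic AMP-responsive genes (23.1% each) and 8 and 11 of 26 hypoxia targets (30.8% and 42.3%). Over all genes these shares were 22.4% and 22.6%. DESeq2 called ADM over all lines (0.0132) and for ARCaPM-DR minus 22Rv1-DR (0.037). With a pseudocount of 0.1, CALCRL in ARCaPM-DR minus DU145-DR was 7.33 and in 22Rv1-DR minus DU145-DR 4.79. Control levels have no block value, since libraries of different lines were not taken as pairs. CALCRL outside ARCaPM-DR rests on 0 to 14 reads per library and the RAMPs outside 22Rv1-DR on 0 to 3, which limits the size of change that this depth can show.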
